A study of Anas platyrhynchos with 6 samples.

Results

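Transcripts of blood clotting and of thrombocytes, the nucleated clotting cells of birds, were followed in duck ovary, namely MMRN1 (multimerin 1), TUBB1 (beta-1 tubulin) and FGG (the gamma chain of fibrinogen). They were chosen by accession, as XM_005019564.2, XM_005010394.2 and XM_005020954.2, and are 3 of 41952 transcripts in the deposited tables. The ovaries came from Jinding ducks, a domestic duck (Anas platyrhynchos) breed. All ducks were 340 days old, came from one family in which birds share a parent, and were kept on the same feed. The high group, 3 libraries, held ducks with a laying rate above 99%, and the low group, 3 libraries, held ducks with a laying rate below 85%. No transgene, drug or other treatment is named. The labels say neither which piece of the ovary was taken nor whether every library is from its own bird, so the p-values cover the variation among these libraries, technical variation included. Libraries are called high 1 to 3 and low 1 to 3 in record order, and the numbers pair nothing across groups.

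Clotting ends when thrombin cuts fibrinogen, a plasma protein built in the liver from alpha, beta and gamma chains encoded by FGA, FGB and FGG, so that it polymerises into fibrin. In mammals multimerin 1 is a large adhesive protein that is stored in platelets, where it binds factor V, and is also made by endothelial cells, those of lymphatic vessels among them. Beta-1 tubulin forms the ring of microtubules that gives mammalian platelets their disc shape, and the matching chicken tubulin is found in thrombocytes and red cells. The ovary of a laying bird is a vessel-rich organ in which yolk proteins pass from plasma to the growing follicles, and RNA of blood and vessel cells is sequenced together with that of follicle and stroma. In such whole-tissue RNA, fewer cells of a type and less RNA per cell cannot be told apart.

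Abundance was read as FPKM, a read level adjusted for the length of the transcript and the size of the library. Such levels can be compared between genes. The deposited values name no unit, so comparisons between genes here rest on this inferred reading. Read depth is unknown. The sum of FPKM over all transcripts lay between 569606 and 639135 per library. The low libraries differed most among themselves: on the first principal component, with 36.1% of the variance, low 1 stood at 54.9 and low 3 at -62.5, with the other 4 libraries between -3.51 and 6.60. Tests covered the 19790 transcripts that reached 1 FPKM in 3 or more libraries, of which limma-trend called 1, or 0.00505%, at a Benjamini-Hochberg adjusted p under 0.05. High and low libraries were fully separated, with no overlap, for 1691 of them, or 8.54%.

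The 3 transcripts stood in the same order of abundance in every library. MMRN1 was the most abundant, at 55.4 to 119 FPKM, and its mean was above that of 93.0% of the tested transcripts. FGG followed at 5.68 to 20.3 FPKM, above 57.7% of them by its mean. TUBB1 was lowest at 0.972 to 4.86 FPKM, above 28.4%, and reached 1 FPKM in 5 of the 6 libraries. The ranges of the 3 transcripts did not meet. MMRN1 was between 2.72 times FGG, in low 1, and 20.9 times FGG, in low 3. None of the 3 differed between the groups beyond the spread of the libraries, so the count called was 0 of 3, beside 0.00505% of all tested transcripts. The groups overlapped for all 3, as they did for most tested transcripts, of which 8.54% were separated.

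**Figure D1:**
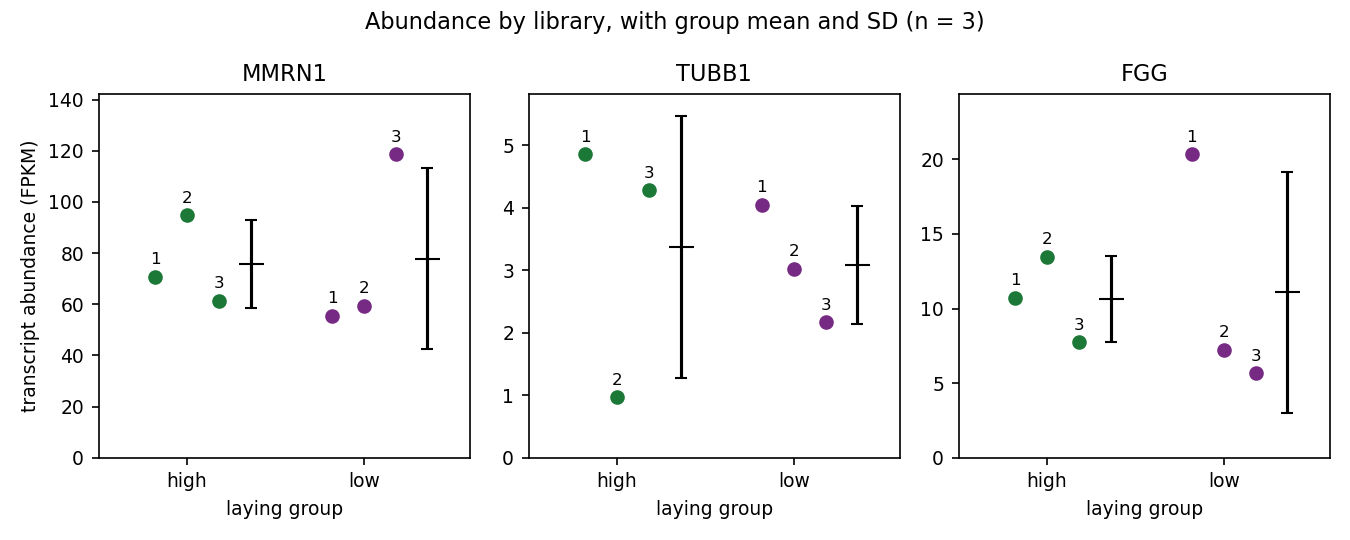
Abundance (FPKM, linear axis from 0) of MMRN1, TUBB1 and FGG in each library, numbered by replicate, with the group mean and SD (n = 3) in black. The groups overlap for each transcript, and single libraries stand apart: low 3 and high 2 for MMRN1, high 2 for TUBB1 and low 1 for FGG.

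MMRN1, the adhesive protein of platelets and endothelium, was at 70.8, 94.9 and 61.4 FPKM in high 1, 2 and 3. It was at 55.4, 59.5 and 119 FPKM in low 1, 2 and 3. The low group thus held both the lowest and the highest library, and the 3 high libraries lay between them. Group means were 75.7 ± 17.3 FPKM in high and 77.9 ± 35.4 FPKM in low (SD, n = 3 each). The log2(FPKM + 1) difference, high minus low, was 0.024 (SE 0.310, 95% interval -0.70 to 0.75, limma adjusted p = 0.9998), and a two-sided exact permutation test over the 20 labelings of 6 libraries gave p = 0.9, where 0.1 is the smallest p possible. The difference of the FPKM means had the other sign. The interval excludes a doubling in either direction on this scale.

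The order of libraries for MMRN1 was low 3, high 2, high 1, high 3, low 2 and low 1. The last 4 of these lay within 55.4 to 70.8 FPKM, so neighbours among them are close in level. The highest library exceeded the lowest 2.14 times. Of the tested transcripts 29.7% had a larger standard deviation of log2(FPKM + 1) over the 6 libraries.

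TUBB1, the tubulin of platelets in mammals and of thrombocytes and red cells in chicken, was at 4.86, 0.972 and 4.28 FPKM in high 1, 2 and 3. It was at 4.05, 3.02 and 2.17 FPKM in low 1, 2 and 3. High 2 was the lowest of all libraries and the other two high libraries were the highest, so the low group lay wholly within the range of the high group. Group means were 3.37 ± 2.10 FPKM in high and 3.08 ± 0.941 FPKM in low. The log2(FPKM + 1) difference was -0.026 (SE 0.442, 95% interval -1.06 to 1.004, limma adjusted p = 0.9998; exact permutation p = 1.0), again opposite in sign to the difference of the means.

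Leaving out high 2, which held 0.972 FPKM, turned the TUBB1 difference to 0.47 (limma adjusted p = 0.9998). The order of libraries was high 1, high 3, low 1, low 2, low 3 and high 2, with high 1 at 5.0 times high 2. The highest 3 lay within 4.05 to 4.86 FPKM. A larger spread over the libraries was seen in 13.5% of the tested transcripts.

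FGG, the fibrinogen gamma chain, was at 10.7, 13.5 and 7.76 FPKM in high 1, 2 and 3. It was at 20.3, 7.24 and 5.68 FPKM in low 1, 2 and 3. Low 1 was the highest library and the other two low libraries were the lowest, so the high group lay wholly within the range of the low group. Group means were 10.6 ± 2.85 FPKM in high and 11.1 ± 8.05 FPKM in low. The log2(FPKM + 1) difference was 0.11 (SE 0.438, 95% interval -0.91 to 1.13, limma adjusted p = 0.9998; exact permutation p = 0.9), while the difference of the FPKM means had the other sign.

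Low 1 moved the FGG comparison more than any other library. Without it every high library was above both remaining low libraries, high 3 at 7.76 FPKM and low 2 at 7.24 FPKM being the nearest pair. Low 1 held the highest FGG level, so leaving it out removes the only low library above the high ones. The share of all tested transcripts that separate without low 1 was not counted. For both reasons this order is a description only and no support for a group difference. The log2 difference without low 1 was 0.62 (SE 0.266, 95% interval -0.023 to 1.26), which did not pass the test (limma adjusted p = 0.524, with 2 transcripts called of all). Without low 3 the difference turned to -0.22 (limma adjusted p = 0.935). The highest library exceeded the lowest 3.58 times, and 12.1% of tested transcripts had a larger spread.

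MMRN1 and FGG put the libraries in the same order except at the ends. High 2, high 1, high 3 and low 2 followed each other in that order for both, but low 3 came first for MMRN1 and last for FGG, while low 1 came last for MMRN1 and first for FGG. These are the 2 libraries at the ends of the first principal component. TUBB1 followed neither order, with high 2 last, low 3 next to last and low 1 and low 2 in the middle.

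The other fibrinogen chains were lower than FGG in every library, by the smallest factor in low 1. FGG was 5.38 times FGA and 2.21 times FGB there, and 6.23 times FGA in low 3. FGA, the alpha chain, was at 0.108, 0.391 and 0.277 FPKM in high 1, 2 and 3 and at 3.78, 0.291 and 0.912 FPKM in low 1, 2 and 3. FGB, the beta chain, was at 0.437, 1.04 and 0.887 FPKM in the high libraries and at 9.23, 0.722 and 1.46 FPKM in the low libraries. Both were highest in low 1, and both had low 3 in the next place. FGA did not reach 1 FPKM in 3 libraries and was not tested; it is described here because its values were seen. For FGB the log2 difference was -0.99 (SE 0.619) with a limma adjusted p of 0.9998.

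FGG therefore made up 95.2%, 90.4% and 87.0% of the summed FPKM of the 3 chains in high 1, 2 and 3. The shares were 61.0% in low 1, 87.7% in low 2 and 70.5% in low 3. Against FGB, FGG was 24.5, 12.9 and 8.74 times as abundant in the high libraries and 2.21, 10.02 and 3.89 times in the low libraries. Where FGA and FGB together were at 1.43 FPKM or less, in high 1, 2 and 3 and low 2, FGG still stood at 7.24 to 13.5 FPKM. In the RefSeq gene order of the Pekin duck assembly of IASCAAS, FGG, FGA and FGB lie next to each other.

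Other genes of the liver list, which holds liver-made plasma proteins and some liver enzymes, were also highest in low 1. Of the 17 genes of that list that could be named, 11 had their highest level there, FGG, FGA and FGB among them, where low 1 was the highest library for 27.7% of the 2309 named genes above 0. The 11 and the 17 count FGG itself, so they are not separate from its own level in low 1. In 8 of the 17, low 1 was more than 2 times the next library, against 2.56% of the named genes, a cut set after the values were seen. FGG was not among the 8, with low 1 at 1.51 times the next library. Of the 8, APOB, AHSG, FETUB, AMBP, GC and FGA stayed under 1 FPKM outside low 1 and were not tested. GC, the vitamin D binding protein, was at 5.92 FPKM in low 1 and 0.0966 to 0.374 FPKM elsewhere. AHSG, a fetuin, was at 2.63 FPKM against 0.0865 to 0.321 FPKM, and AMBP, the precursor of alpha-1-microglobulin, at 2.06 against 0.0340 to 0.199 FPKM. RBP4, the retinol carrier, was at 11.2 FPKM in low 1 and 3.97 to 4.72 FPKM elsewhere. GC, AHSG and AMBP were singled out after their values were seen. The part of this pattern in the FGG value of low 1 was not tested.

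**Figure D2:**
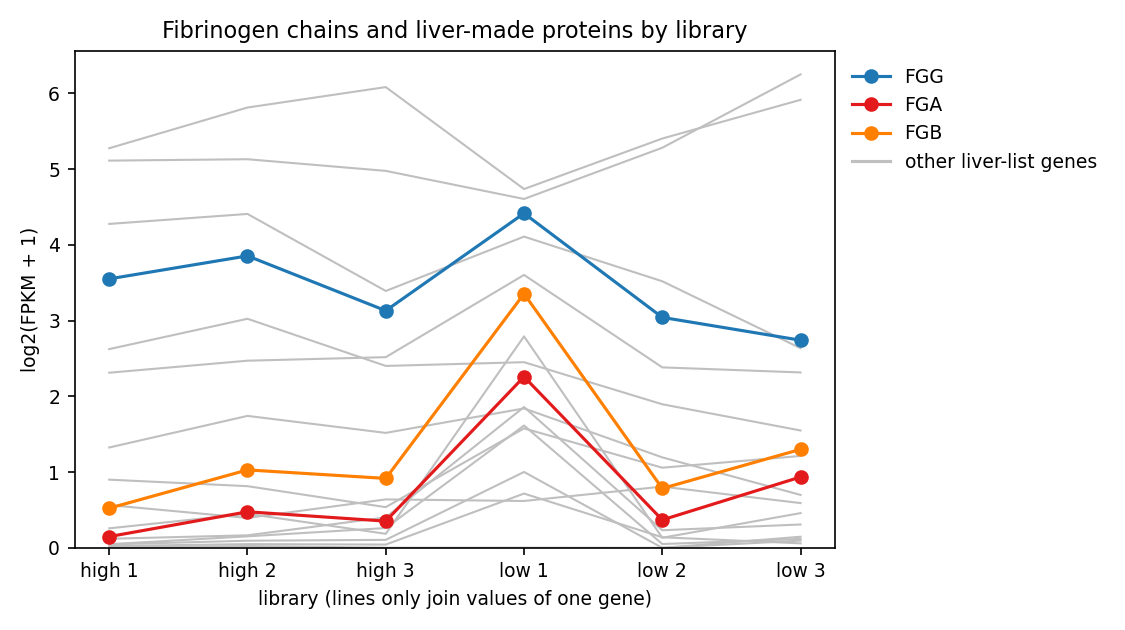
Level as log2(FPKM + 1) of the fibrinogen chain genes FGG, FGA and FGB and, in grey, of the other 14 named genes of the liver list, in each library. FGA and FGB stay at or under 1.46 FPKM except in low 1, where they reach 3.78 and 9.23 FPKM, whereas FGG is at 5.68 FPKM or more in each library.

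Not all liver-list genes shared this order. CP, the copper carrier ceruloplasmin, was lowest in low 1, at 25.7 FPKM against 37.7 to 66.8 FPKM elsewhere. SERPIND1, the thrombin inhibitor heparin cofactor II, was also lowest there at 23.4 FPKM and highest in low 3 at 75.1 FPKM. TAT, a liver enzyme of tyrosine breakdown and no plasma protein, was at 18.4, 20.2 and 9.49 FPKM in the high libraries and 16.3, 10.5 and 5.21 FPKM in the low libraries. Of the 17 named genes 9 were tested, 5 with a log2 difference above 0 and 4 below, and 0 were called by limma. Their median log2 difference was 0.11, and it ran from -0.07 to 0.33 over the alternative settings. FGG is among the 9 and was itself the middle value, at 0.11 and at the -0.07 end. This median is thus not separate from FGG. Over all tested transcripts the median was -0.003.

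Among the coagulation factors, 11 of 23 listed genes could be named and 8 were tested. Of the 8, 5 were above 0 and 3 below, with a median log2 difference of 0.13 (0.04 to 0.25 over the settings) and 0 called. FGG is among the 8 and enters this median. F10, coagulation factor X, was at 31.3, 24.3 and 24.1 FPKM in the high libraries and 11.2, 19.2 and 15.2 FPKM in the low libraries. Its groups did not overlap, as held for 2 of the 8 tested genes and for 8.54% of all tested transcripts, and the log2 difference was 0.79 (SE 0.225), which did not pass (limma adjusted p = 0.9998). KNG1, kininogen, was the other, at 0.692 ± 0.215 FPKM in high and 1.46 ± 0.468 FPKM in low. Its high libraries were at 0.451 to 0.866 FPKM, all under 1 FPKM. KNG1 thus passed the filter through the low group alone, and its separation is no support for a group difference. VWF, the von Willebrand factor that tethers platelets to damaged vessel walls, was at 59.5 ± 5.58 against 54.6 ± 13.1 FPKM. FGL2, a fibrinogen-like protein of macrophages and T cells, was at 87.4 ± 4.31 against 80.8 ± 41.3 FPKM. MCFD2, which helps factors V and VIII leave the endoplasmic reticulum, was at 134 ± 4.87 against 107 ± 20.2 FPKM.

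Anticoagulant and fibrinolysis genes had 8 named and 4 tested members of 24 listed, 3 above 0 and 1 below, with a median log2 difference of 0.02 (-0.22 to 0.34 over the settings) and 0 called. PLAU, the urokinase plasminogen activator, was at 38.8 ± 3.66 FPKM in high and 40.3 ± 16.8 FPKM in low. SERPINE2, an inhibitor of thrombin and urokinase, was at 3.59 ± 0.889 against 3.15 ± 1.73 FPKM. SERPINA10, the protein Z-dependent inhibitor of factor X, was at 1.148 ± 0.866 against 1.17 ± 1.02 FPKM. SERPIND1 was at 32.7 ± 1.93 against 45.5 ± 26.7 FPKM. Factors named here are made in other tissues as well, and a level in ovary RNA does not tell the source.

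The label of thrombocyte genes was set against other markers of those cells. Of 44 listed thrombocyte genes 14 could be named, and 5 of the 14 stayed under 1 FPKM in all of their transcripts and libraries. They were GP1BA, GP5, GFI1B, TBXAS1 and F2RL3. GP1BA and GP5 encode platelet surface glycoproteins, GP1BA with its most abundant transcript at 0.0000141 to 0.199 FPKM and GP5 at 0.0542 to 0.152 FPKM. GFI1B, a transcription factor of the platelet and red cell lineages, was at 0.133 to 0.287 FPKM. The other listed markers were measured at higher levels. P2RY12, the ADP receptor of platelets, was at 0.763 to 2.06 FPKM and, like TUBB1, reached 1 FPKM in 5 of the 6 libraries. TMEM40, a membrane protein, was at 3.82 to 10.8 FPKM, and F2RL2, a protease-activated receptor, at 6.09 to 8.98 FPKM, both above TUBB1 in every library. TUBB1 at 0.972 to 4.86 FPKM thus lay among the measured thrombocyte genes, and MMRN1 was at 55.4 to 119 FPKM, the second highest of the list after CD9 by its mean. The ranges in this paragraph were added after the values were seen.

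Of the abundant members of the thrombocyte list, CD9, PLEK and FLI1 are also expressed by other cells. CD9, a tetraspanin of many cell types, was at 574 ± 42.2 FPKM in high and 548 ± 115 FPKM in low. PLEK, the protein kinase C substrate pleckstrin of platelets and leukocytes, was at 15.9 ± 4.12 against 17.05 ± 3.51 FPKM. FLI1, an ETS factor of endothelium and megakaryocytes, was at 15.8 ± 2.04 against 13.6 ± 1.95 FPKM in its most abundant transcript. The 9 tested members split 5 above 0 and 4 below, with a median log2 difference of 0.02 (-0.08 to 0.11 over the settings) and 0 called. MMRN1 and TUBB1 are among the 9, and MMRN1 was itself the middle value, at 0.02 and at the -0.08 end. This median is thus not separate from MMRN1. Without MMRN1 and TUBB1, the summed level of the tested members was 632 to 725 FPKM in high and 577 to 771 FPKM in low, most of it CD9.

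**Figure D3:**
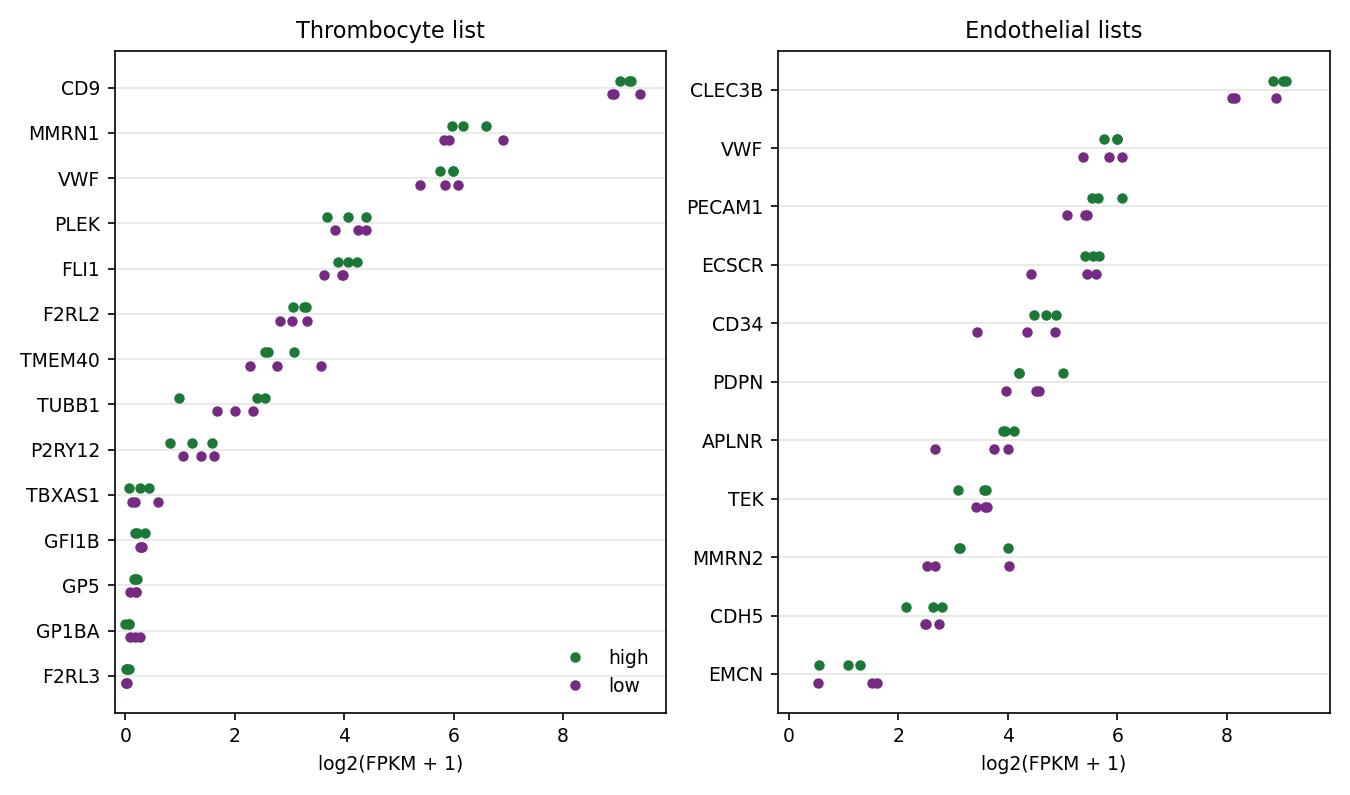
Level as log2(FPKM + 1) of the named genes of the thrombocyte list (left) and of the blood and lymphatic endothelial lists without MMRN1 (right), with 1 dot per library, high in green and low in purple. GP1BA, GP5 and GFI1B lie near 0, TUBB1 is low, and MMRN1 lies near VWF and PECAM1.

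MMRN1 stood above the endothelial genes VWF and PECAM1 in every library. Its ratio to VWF ran from 1.06 in low 2 to 1.78 in low 3, and its ratio to the most abundant transcript of PECAM1, an adhesion protein of endothelial junctions, from 1.06 in high 1 to 2.85 in low 3. PECAM1 was at 53.9 ± 11.3 FPKM in high and 39.0 ± 5.40 FPKM in low. ECSCR, an endothelial surface protein, was at 45.8 ± 4.31 against 37.0 ± 14.5 FPKM, and CD34, of endothelium and blood progenitors, at 24.9 ± 3.70 against 19.1 ± 9.15 FPKM. The summed level of the 9 tested blood endothelial genes was 209 to 244 FPKM in high and 131 to 215 FPKM in low, lowest in low 1, where 6 of the 9 had their lowest value. MMRN1 was also lowest in low 1, as were 20.2% of all tested transcripts. In low 3, where MMRN1 was highest, the sum was 212 FPKM, within the range of the high group. Of the 9 genes only 1, VWF, had its highest value in low 3. VWF was at 66.7 FPKM there and lowest in low 1, at 40.7 FPKM, as MMRN1 was highest and lowest in these libraries.

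The 9 endothelial genes split 6 above 0 and 3 below, with a median log2 difference of 0.34 that fell to 0.013 without low 1 and to -0.05 with array weights, and 0 were called by limma. Of the lymphatic list 3 of 13 genes were named, MMRN1 included. PDPN, podoplanin, was at 22.1 ± 7.95 FPKM in high and 19.7 ± 4.43 FPKM in low. CLEC3B, tetranectin, which binds plasminogen and is also made by stroma, was at 508 ± 43.9 against 344 ± 113 FPKM. Its log2 difference was 0.61 (SE 0.243) with a limma adjusted p of 0.9998. Neither had its highest value in low 3. MMRN2, the multimerin of vessel endothelium and the single other named gene of that family, was at 14.97, 7.73 and 7.61 FPKM in the high libraries and 4.74, 15.3 and 5.34 FPKM in the low libraries. MMRN1 was 3.90 times MMRN2 in low 2 and 22.2 times in low 3.

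TUBB1 was set beside the red cell genes and the tubulins. Of 34 listed red cell genes 2 could be named, and of 23 listed tubulins 2, TUBB1 included. RHAG, a membrane protein of the red cell Rhesus complex, was at 5.76, 2.49 and 5.204 FPKM in the high libraries and 4.10, 4.17 and 5.28 FPKM in the low libraries. As for TUBB1, high 2 was the lowest library and high 1 the highest. Low 3, however, came next after high 1 for RHAG and next to last for TUBB1. HEMGN, hemogen, of blood progenitors, was also lowest in high 2, at 0.732 FPKM, but stood at 10.7 FPKM in high 3 and 4.07 FPKM in low 1 against 0.868 to 1.27 FPKM in the others. TUBAL3, an alpha-tubulin-like gene, was at 37.2 ± 6.83 against 31.7 ± 9.62 FPKM and was lowest in low 3. A minimum in high 2 was not particular to red cell genes, as it was seen in 12.99% of all tested transcripts. Single genes of other lists, picked after the values were seen, were also lowest there. They were CDH5 and TEK of the blood endothelial list, MARCO of the leukocyte list and FSHR of the granulosa and theca list. Most genes of the first 2 lists were lowest in low 1 instead, 6 of 9 endothelial and 8 of 12 leukocyte genes. Whether the amount of blood in each piece moved TUBB1 was not tested. Haemoglobin genes were on the red cell list, but none could be named.

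The named transcripts closest in pattern to each of the 3 were found by the root-mean-square difference of log2(FPKM + 1) over the 6 libraries, each profile centred on its own mean, among 1708 named genes. A profile with no variation would stand at 0.391 from MMRN1, 0.537 from TUBB1 and 0.559 from FGG. Closest to MMRN1 were SYNPO2, an actin-binding protein of muscle, at 0.107, NR1H3, an oxysterol receptor, at 0.108, and HOXB5, FHL2 and BICRAL at 0.111 to 0.112. SYNPO2 was at 69.1, 98.2 and 60.3 FPKM in the high libraries and 61.1, 68.6 and 141 FPKM in the low libraries, with low 3 and high 2 the highest as for MMRN1. SYNPO2 is also on the smooth muscle and pericyte list. The mean profile of the 5 tested genes of that list was the closest to MMRN1 of the 14 lists, at 0.223. SYNPO2, itself picked as closest to MMRN1, enters this mean, so the 2 observations are not separate. Of these 5 genes 4, SYNPO2 among them, were highest in low 3 and 3 were lowest in low 1, against 20.3% and 20.2% of all tested transcripts. Low 3 was barely the highest for KCNJ8, at 77.9 FPKM against 76.1 FPKM in high 2. The same held for CALD1, at 96.0 FPKM against 95.5 FPKM in high 1.

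FGG was closest to C1D, a cofactor of the nuclear exosome, at 0.157, and then to LRRC8B, FBXO5, a non-coding transcript of LRFN2, and ACMSD at 0.180 to 0.216. C1D was at 39.7, 42.8 and 27.8 FPKM in the high libraries and 56.1, 30.2 and 19.9 FPKM in the low libraries. FBXO5, an inhibitor of the anaphase-promoting complex, was at 29.0, 41.5 and 31.7 FPKM in the high and 59.0, 28.6 and 19.2 FPKM in the low libraries. Each of the 5 was highest in low 1 and lowest in low 3, as FGG was. Low 1 was also the highest library for 4 of the 6 tested oocyte genes, against 26.9% of all tested transcripts. Low 3 was the lowest for 5 of the 6 genes of this oocyte list, against 29.2% of all. The mean profile of that list stood at 0.360 from FGG and that of the tested liver-list genes at 0.370, while the closest list, at 0.346, was the tubulins with the single gene TUBAL3.

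The profiles nearest to TUBB1 were farther off than those nearest to MMRN1. ACSBG2, an acyl-CoA synthetase, was nearest at 0.216, followed by KCNIP1, ZPLD1, PLD4 and SLC34A2 at 0.224 to 0.235. ACSBG2 was at 7.10, 2.73 and 6.55 FPKM in the high libraries and 8.14, 6.33 and 5.62 FPKM in the low libraries. High 2 was the lowest library for each of the 5, as for TUBB1. Of the 14 lists, the mean profile closest to TUBB1 was that of the granulosa and theca genes, at 0.422. The red cell list stood at 0.457 and the thrombocyte list, without MMRN1 and TUBB1, at 0.506. The nearest profiles were picked from 1708 genes over 6 libraries and are a description of these libraries.

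**Figure D4:**
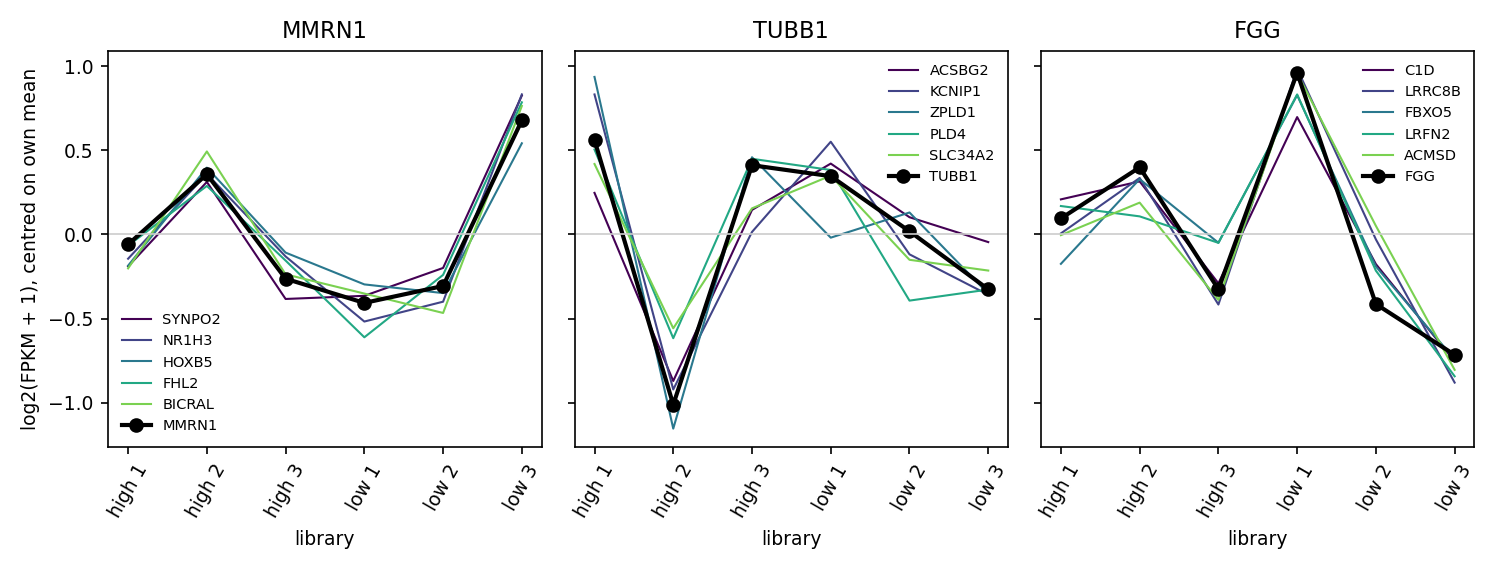
Profiles of MMRN1, TUBB1 and FGG (black) and of the 5 named transcripts closest to each (coloured), as log2(FPKM + 1) centred on each gene's mean, over the 6 libraries. MMRN1 peaks in low 3 and high 2, TUBB1 dips in high 2, and FGG peaks in low 1 and is lowest in low 3.

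The other lists were fixed for cells that a piece of ovary can hold. In the leukocyte and stromal lists low 1, at an end of the FGG and MMRN1 orders, was often the lowest library. Of 12 tested leukocyte genes 8 were lowest in low 1, and of 8 stromal genes 6 were, against 20.2% of all tested transcripts. Low 3, at the other ends, was highest for 3 of the 12 and 2 of the 8, against 20.3% of all. The median log2 difference was 0.31 for leukocytes (0.13 to 0.48 over the settings) and 0.34 for stroma (0.10 to 0.44). It was -0.06 for smooth muscle (-0.23 to 0.19), 0.01 for 3 tested granulosa and theca genes (-0.09 to 0.27) and 0.09 for the oocyte list (-0.26 to 0.39). Of the 72 distinct listed genes that were tested, 0 passed the limma threshold and 5 had an unadjusted limma p under 0.05. Over all 19790 tested transcripts 1 passed and 694 had an unadjusted limma p under 0.05. The part of tissue makeup in the values of MMRN1, TUBB1 and FGG was not tested.

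**Figure D5:**
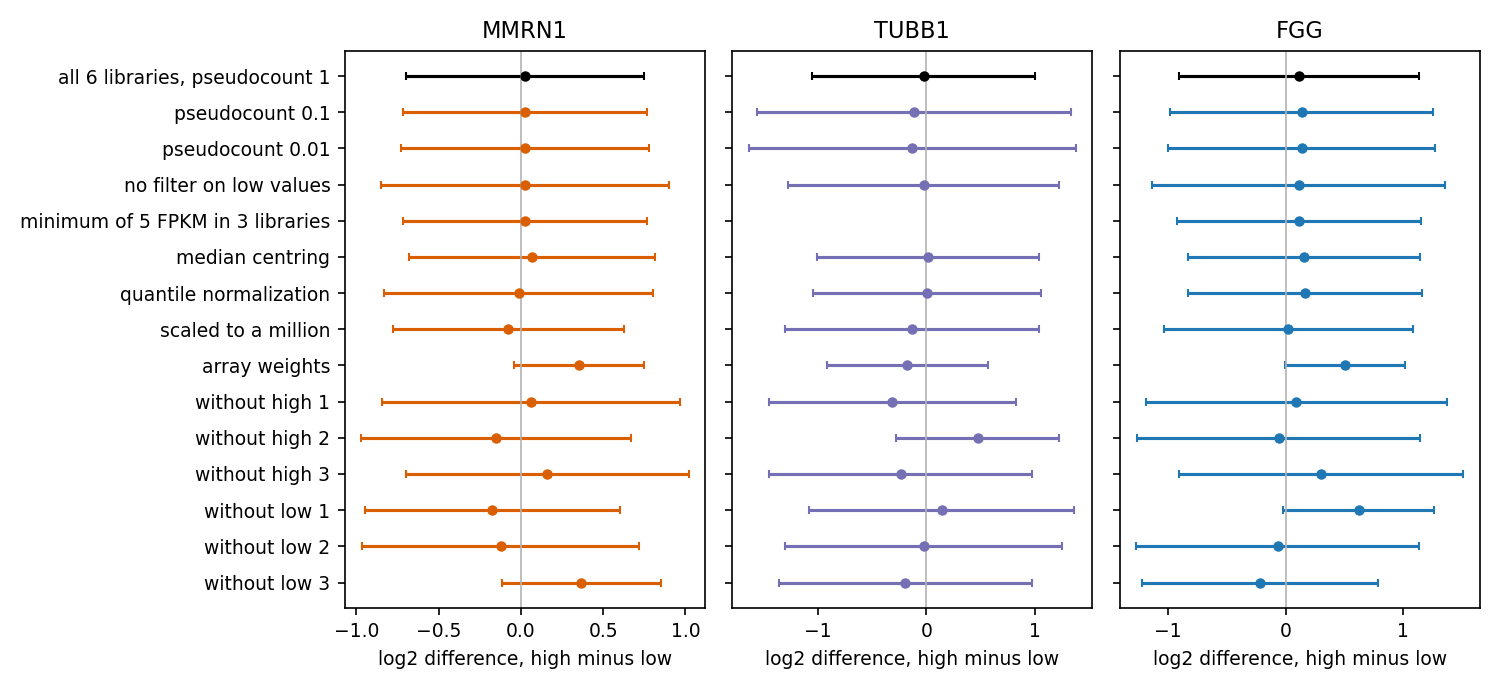
Log2 difference, high minus low, with its 95% limma interval for MMRN1, TUBB1 and FGG under each setting, the comparison of all 6 libraries with a pseudocount of 1 in black. Each interval spans 0, and the estimates change sign when single libraries are left out. TUBB1 has no value at a minimum of 5 FPKM.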

How the data were processed

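Ovary RNA was sequenced as 6 stranded, poly(A)-selected TruSeq libraries, per the labels' protocols. Per the submitters' processing notes, Bowtie2 2.0.6 and TopHat2 2.0.9 were used. Not given in the sources used here are the abundance program, its use of strand, and the build. The deposited values name no unit. They are fractional, never negative and differ in sum between libraries, and were read as FPKM computed by the authors, 1 value per transcript. Low values showed no common step (the fullest bin, 0.02 wide in log2, held 0.814% to 1.10% of 6632 transcripts), so no count test was run and depth is unknown. Symbols came from RefSeq accessions of the IASCAAS Pekin duck assembly matched without version (4636 of 41952, or 11.1%). Each of the 3 symbols had 1 transcript in the tables.

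Values were compared as log2(FPKM + 1) with limma-trend (limma 3.58.1, R 4.3.3), two-sided, group as the only term, on transcripts that reached 1 FPKM in 3 or more libraries. P-values were adjusted over all 19790. Single transcripts also had an exact permutation test (SciPy 1.17.1). The fit was tested on simulated data. A gene entered a list through its most abundant tested transcript. Text genes were up to 4 per clotting, blood or vessel list with the highest mean, and the 5 closest profiles per transcript. The 3 transcripts and all lists were chosen with earlier results of these data known.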

Additional observations from a re-analysis of the deposited data

How the results depend on the processing

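No paired analysis was possible because the replicate numbers of the labels are not shared between the groups. The call for MMRN1, TUBB1 and FGG, not past the threshold, held in each alternative run. The log2 difference of MMRN1 turned to -0.015 under quantile normalization and to -0.078 with libraries scaled to a common total, and ran from -0.17 to 0.37 with a library left out. That of TUBB1 turned to 0.015 under median centring and 0.0027 under quantile normalization, and ran from -0.31 to 0.47 with a library left out. That of FGG ran from -0.22 to 0.62. Signs turned without high 2 for all 3, without low 1 or low 2 for MMRN1, without low 1 for TUBB1 and without low 2 or low 3 for FGG. The difference of mean FPKM was -2.18 for MMRN1, 0.289 for TUBB1 and -0.443 for FGG, with exact permutation p of 1.0, 0.8 and 1.0. The cause of these turns was not tested. TUBB1 gave no value at a minimum of 5 FPKM. Array weights gave 0.36 for MMRN1 and 0.51 for FGG, the smallest limma adjusted p of FGG being 0.153, but put 97.1% of the weight of the low group on low 2. Over all transcripts limma called 1 in the main comparison, 0 at a pseudocount of 0.01 or with no filter, 2292 with array weights and 1 to 3 with a library left out (2 without high 1, low 1 or low 2, 3 without low 3). With array weights 9 of the 72 listed genes passed, beside 2292 of all 19790 tested transcripts, where 0 of the 72 did otherwise. The 9 were APOH, DPT, FGL2, GDF9, LAPTM5, MCFD2, RGS1, SPI1 and TDRD5. These counts were added after seeing the data. With depth unknown, values near 1 FPKM, as for TUBB1, carry a counting error that cannot be given.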
